A study of Mus musculus with 3 samples.

Results

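The T cell receptor (TCR) β chain contigs described here carried the V gene name TRBV10 in the deposited annotation of sciatic nerve–infiltrating immune cells. Contigs were chosen by that name alone. The name itself was selected on an earlier reading of these data, in which its contigs were productive although the mouse reference annotates a gene of that name as a pseudogene. It was found in 246 of the 6256 called cells with a productive β chain (TRB), and in 137 of their 3872 distinct rearrangements, where a rearrangement is 1 combination of V name, CDR3 bases and J name in a library. On all barcodes, cells or not, 622 of 18885 TRB contigs had the name.

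The data were droplet-based single-cell TCR sequences (scTCR-Seq) of CD45+ cells, that is, of all leukocytes, sorted from sciatic nerves of neuropathic NOD.AireGW/+ mice. The nonobese diabetic (NOD) background is prone to autoimmunity, and these mice carry 1 copy of a partial loss-of-function allele of Aire, a gene needed to delete self-reactive T cells in the thymus. The study's methods give all mice as female, and their age is not given in the sources used here. There were 3 libraries of this 1 condition: replicate 1 and replicate 2 were of 1 mouse each, replicate 3 pooled 2 mice, and no control group was analysed here. Replicate 1 had 2253 cells with a productive TRB, replicate 2 had 3361 and replicate 3 had 642, on 34630, 41338 and 5142 unique molecular identifiers (UMIs, which count captured transcripts). Gene expression was not analysed here, so whether a cell was CD4+ or CD8+ was not known.

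A TCR β chain is assembled in the thymus from 1 V, 1 D and 1 J segment, with bases trimmed and added where they join. The joint encodes CDR3, the loop that lies over the peptide in the groove of an MHC molecule, while the CDR1 and CDR2 loops are encoded in the V segment. A contig is called productive when its reading frame is open from the V segment through CDR3 into J. T cells that descend from 1 cell carry the same rearrangement, so cells that share one within a library are read as a clone.

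Where the V region could be read it was Trbv4, not Trbv10. This was possible for productive contigs of called cells in replicates 2 and 3, whose V sequence is given from framework 1 to framework 3. All 137 TRBV10 cells of replicate 2 and all 27 of replicate 3 had the same 270 bases. This sequence is shown because the identity of the gene rests on it, with CDR1 and CDR2 in capitals:
V region of contigs named TRBV10: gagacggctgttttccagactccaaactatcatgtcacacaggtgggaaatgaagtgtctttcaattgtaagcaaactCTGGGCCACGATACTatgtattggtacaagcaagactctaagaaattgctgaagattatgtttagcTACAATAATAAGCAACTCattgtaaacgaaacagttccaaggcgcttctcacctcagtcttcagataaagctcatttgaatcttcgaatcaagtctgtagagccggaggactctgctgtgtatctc
It equals chr6:41059600-41059869 of GRCm38 (the build also named mm10) on the plus strand, with 0 of 270 bases different. That stretch lies in the second exon, chr6:41059592-41059886, of Trbv4, a functional V gene at chr6:41059394-41059886 whose product the older nomenclature calls Vβ10. The loops read LGHDT for CDR1 and YNNKQL for CDR2, and the V region held no stop codon.

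The gene that GENCODE M21 calls Trbv10, a pseudogene with 1 exon at chr6:41091940-41092228, begins 32054 bases downstream of the end of Trbv4. In an alignment, 173 of the 270 contig bases (64.1%) were identical to it. The ends of the 2 genes are shown because CDR3 begins there, with the codon at the place of the conserved cysteine in capitals:
Trbv4, chr6:41059870-41059886: TGTgccagcagctaaga
Trbv10, chr6:41092210-41092228: TGGgccagcagtgaacaaa
Trbv4 has the cysteine codon. The pseudogene has TGG there, a tryptophan codon when the exon is read from its first base, a frame with 0 stop codons. In the reading frame that RefSeq gives the pseudogene, which held 8 stop codons, these bases were not a codon. Of the 22 TRBV names in replicates 2 and 3, 21 had a commonest V sequence equal to the gene of that name, and TRBV10 was the 1 name that did not. No TRB contig of any library was named TRBV4. The contigs are called TRBV10 below because that is their deposited name. The annotation as a pseudogene does not apply to the V sequence read in replicates 2 and 3. Contigs without a V sequence could not be checked in this way.

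The table of replicate 1 holds no V sequences, so its contigs were compared by position and CDR3. All 60 TRBV10 consensus contigs of replicate 1, all 78 of replicate 2 and all 20 of replicate 3 placed CDR3 327 bases after the start of V, which is the number of coding bases of Trbv4 before its conserved cysteine. The reference V segment ended at base 344, the coding length of Trbv4, in 52 of 60, 73 of 78 and 20 of 20. The positions do not single out 1 gene, since 3 other names shared both. The CDR3s of all 137 rearrangements were also compared with the ends of Trbv4 and Trbv10. The match to Trbv4 had a median of 12 bases in each library (lowest 7, highest 14) and that to Trbv10 was 2 bases in every rearrangement. The value of 2 was fixed in advance, since a CDR3 begins with a cysteine codon and the end of Trbv10 with TGG. The contrast between the matches therefore does not separate Trbv4 from Trbv10. In replicate 1, 44 of 55 rearrangements matched at least 12 bases of Trbv4, against 54 of 62 in replicate 2 and 16 of 20 in replicate 3. The genes of 3 other names end with the same first 12 bases, so the match to Trbv4 does not single out that gene. In replicate 1 the V gene was thus not identified by sequence.

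**Figure D1:**
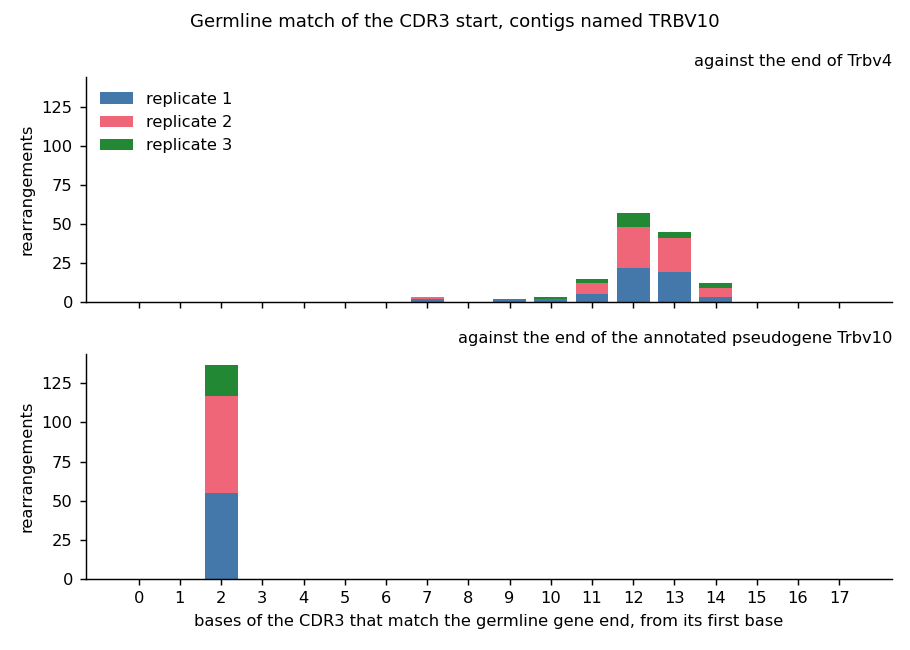
Bases of each productive TRBV10 CDR3 that match a germline V gene end (x axis, in bases from the first base of CDR3) against the number of distinct rearrangements (y axis), stacked by library. Matches to Trbv4 lie between 7 and 14 bases, and all 137 matches to the annotated pseudogene Trbv10 are 2 bases long. Any CDR3 that starts with a cysteine codon matches the TGG of Trbv10 in 2 bases only.

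Read in frame, the end of Trbv4 encodes CASS and then a stop codon. Among the genes matched to the 22 names, it was the 1 with an in-frame stop in this part. A productive rearrangement has lost this codon by definition, and the longest productive match, 14 of the 17 bases, ended inside it. CDR3s began with CASS in 121 of 137 rearrangements (88.3%), with CASR in 8, CASK in 3 and CASG in 2, and the remaining 3 began with CATG, CATL or CATT. All 137 therefore kept the first cysteine and alanine codons.

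TRBV10 was of middle rank among the TRBV names. In replicate 1, 82 of 2253 cells (3.64%, exact 95% interval 2.91 to 4.50) carried it. In replicate 2 it was 137 of 3361 cells (4.08%, 3.43 to 4.80), and in replicate 3 it was 27 of 642 (4.21%, 2.79 to 6.06). The 3 intervals overlapped, and the mean was 3.97% ± 0.297 (SD, n = 3). Intervals cover counting error only, and cells of 1 clone are not independent. By mean share TRBV10 took place 10 of 22, and place 11, 10 and 10 within the libraries. TRBV31 stood next above with 4.13% ± 0.756 and TRBV14 next below with 3.81% ± 1.88, and the ranges of 6 other names overlapped that of TRBV10, these 2 among them. The shares most like those of TRBV10 over the 3 libraries were those of TRBV13-2, with a summed difference of 0.660 percentage points, TRBV2 with 2.02 and TRBV31 with 2.33. TRBV13-2 is counted low here, because contigs named TRBV12-2+TRBV13-2 had the same V sequence. TRBV10 contigs had a median of 6.5, 6 and 3 UMIs in the 3 libraries, against 7, 6 and 4 for other TRBs, so they were read at similar depth.

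**Figure D2:**
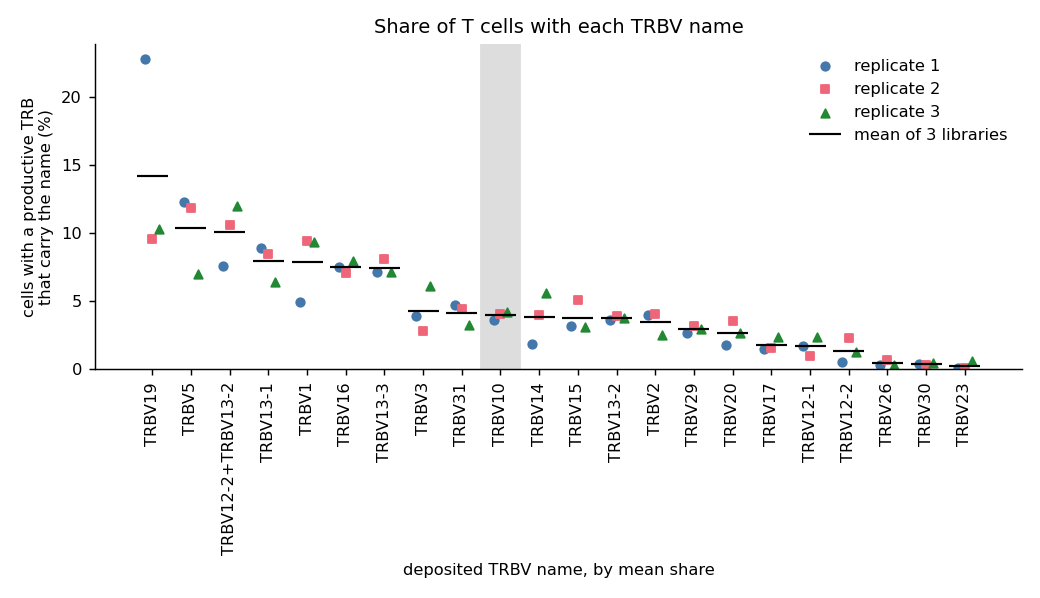
Share of cells with a productive TRB that carry each deposited TRBV name (y axis, percent) for the 22 names in order of mean share (x axis). Points are libraries, bars are means of 3 libraries, and the grey band marks TRBV10, whose points lie between 3.64% and 4.21%.

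The productive share is given as a description with no test, since the name was selected for it. Among high-confidence contigs, 87 of 122 TRBV10 contigs (71.3%) were productive in replicate 1, 151 of 220 (68.6%) in replicate 2 and, in replicate 3, 30 of 39 (76.9%). The mean was 72.3% ± 4.23 (SD, n = 3), against 85.4% ± 3.28 for contigs of all other TRBV names, and the shares were 83.0%, 89.2% and 84.1% in the same libraries. TRBV10 was lower in each of the 3. Among contigs with at least 3 UMIs it was lower in replicates 1 and 2 (78.3% against 92.5% and 82.2% against 94.2%) but higher in replicate 3 (95.8% against 93%). Over the libraries together, TRBV10 took place 20 of 22 names with 70.3%, next to TRBV26 with 72.3% and above TRBV12-1 with 35% and TRBV23 with 10.8%. Among full-length contigs the shares of TRBV10 were 83.7%, 80.3% and 83.3%, against 90.1%, 94.3% and 92.7% for the other names.

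Nonproductive TRBV10 contigs had fewer UMIs. Their median was 3, 2 and 1 UMIs in replicates 1, 2 and 3, against 6, 6 and 3 for productive ones. Of the 113 high-confidence nonproductive contigs, 41 had a CDR3 and 72 had none. No nonproductive contig had a complete V sequence to compare, so whether these contigs carry Trbv4 was not established. Counting contigs of any confidence, CDR3s that began with CQ, a start seen in no productive TRBV10 contig, made up 9 of 22 nonproductive CDR3s in replicate 1, 12 of 41 in replicate 2 and, in replicate 3, 6 of 10. In called cells, nonproductive TRBV10 contigs lay mostly beside a productive TRB of another V gene. This was so in 22 of 25 such cells of replicate 1, 48 of 51 of replicate 2 and 5 of 6 of replicate 3. Most called cells have such a TRB, however. Of all cells with any productive chain, 2179 of 2374, 3243 of 3555 and 616 of 705 had a productive TRB of another name. The counts therefore show no trait particular to these contigs. A T cell has 2 copies of the TRB locus, and a failed rearrangement on one is often transcribed beside a functional one on the other. Whether these nonproductive contigs were such failed rearrangements was not tested.

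Productive TRBV10 contigs had a median length of 544 bases in replicate 1, 541 in replicate 2 and 538 in replicate 3, between 504 and 616 bases in all, and other TRB contigs had 552, 546 and 552. The constant region was that of the J cluster in every TRBV10 cell. All 18, 42 and 6 cells with a TRBJ1 segment had TRBC1, and all 64, 95 and 21 cells with a TRBJ2 segment had TRBC2, the order in which the clusters lie on the chromosome.

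The 3 TRBJ genes with most TRBV10 rearrangements were all of the TRBJ2 cluster. TRBJ2-7 had 29 of 137, with 16, 11 and 2 in the 3 libraries, TRBJ2-5 had 23, with 8, 8 and 7, and TRBJ2-3 had 22, with 9, 12 and 1. In pooled shares these were 21.2%, 16.8% and 16.1%, against 19.9%, 12.6% and 9.64% for rearrangements of other TRBV names. Their order was not the same in each library: TRBJ2-3 led in replicate 2 and TRBJ2-5 in replicate 3, where 7 of 20 rearrangements had it.

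A TRBJ2 segment of any kind was found in 43 of 55 TRBV10 rearrangements of replicate 1 (78.2%), 45 of 62 of replicate 2 (72.6%) and 16 of 20 of replicate 3 (80%). Other TRBV names had 66.5%, 64.4% and 67.5%, so TRBV10 was higher in each library. Together it was 104 of 137 (75.9%, exact 95% interval 67.9 to 82.8) where 66.1% would be the share of all rearrangements of the same libraries. An exact two-sided conditional test stratified by library gave p = 0.0130 and an adjusted p of 0.118 (Benjamini-Hochberg over 63 tests, of 21 TRBV names with at least 10 rearrangements and 3 measures), so the difference did not pass 0.05. In this measure 1 of 21 names (4.76%) passed. TRBV10 had the third highest TRBJ2 share of the 21. The p-values measure differences between rearrangements in these libraries, not between mice.

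**Figure D3:**
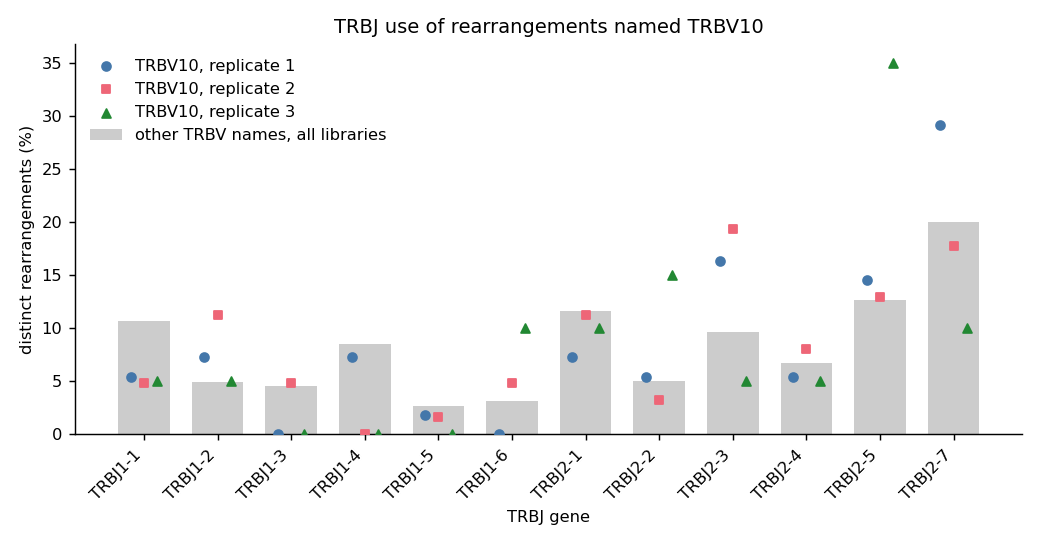
Share of distinct TRBV10 rearrangements with each TRBJ gene (y axis, percent; points are libraries) over the pooled share among all other TRBV names (grey bars). TRBJ2-3 lies above the bar in replicates 1 and 2 and below it in replicate 3, and TRBJ2-5 reaches 35% in replicate 3.

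CDR3 lengths of TRBV10 were close to those of the other names. They averaged 13.9 ± 1.56 residues in replicate 1 (SD over 55 rearrangements), 14.1 ± 1.17 in replicate 2 (62) and 14.1 ± 1.37 in replicate 3 (20), and the mean of libraries was 14.01 for TRBV10 and 13.98 for the other TRBVs. CDR3s longer than the library median of 14 residues made up 21 of 55, 17 of 62 and 7 of 20 TRBV10 rearrangements. Together these were 45 of 137 (32.8%, 25.1 to 41.4), where all rearrangements would give 35.7%. The same exact test gave an adjusted p of 0.719, in a measure in which 4 of 21 names (19%) passed. Counted over cells, which are not independent within a clone, 24.8% had a longer CDR3 and the adjusted p of the exact test was 0.00979. Without replicate 2 the rearrangements' share was 37.3%, above the 36.9% of all.

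Junctions were divided into V, D and J bases by matching to the germline segments, with Trbv4 as the V segment of TRBV10. Bases that match none of the segments stand for added nucleotides. TRBV10 rearrangements had a median of 4 such bases in replicates 1 and 2 and 2.5 in replicate 3, and other TRBV names had 4, 3 and 4. In 5 of 137 TRBV10 rearrangements (3.65%) and 6.85% of the others every base matched a segment. A match of at least 4 bases assigned TRBD1 to 70 and TRBD2 to 59 TRBV10 rearrangements, and 8 had none. These were 51.1%, 43.1% and 5.84%, against 54.4%, 30.6% and 15% of rearrangements of other names, whose match to V was longer (a median of 14 bases against 12). TRBD2 was considered only beside a TRBJ2 segment, which 75.9% of TRBV10 rearrangements had against 65.5% of the others. The V match of TRBV10 is limited by the stop codon in the end of Trbv4, which a productive rearrangement must lose. The difference in D use was not tested.

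Expansion of TRBV10 clones was described only, because expansion by V gene was known when the name was selected. In replicate 1, 13 of 55 rearrangements (23.6%) were found in more than 1 cell, against 20.3% of rearrangements of other TRBV names. In replicate 2 it was 26 of 62 (41.9%) against 21.5%, and in replicate 3 it was 4 of 20 (20%) against 12.2%. The share in replicate 2 was thus the farthest from that of the other names, and its interval (29.5 to 55.2) overlapped that of replicate 1 (13.2 to 37.0). The study used its size classes for TCR sequences of conventional CD4+ T cells. Here the same limits were set on TRB rearrangements per library, over all cells with a TRB. By these limits, 2, 5 and 0 TRBV10 rearrangements were of medium size (6 to 20 cells) in replicates 1, 2 and 3. That was 3.64%, 8.06% and 0% of them, against 2.97%, 3.35% and 0.387% of rearrangements of other names. None of the 137 had over 20 cells, and few of the other names did: 4 in replicate 1 (0.321%), 8 in replicate 2 (0.406%) and 0 in replicate 3.

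**Figure D4:**
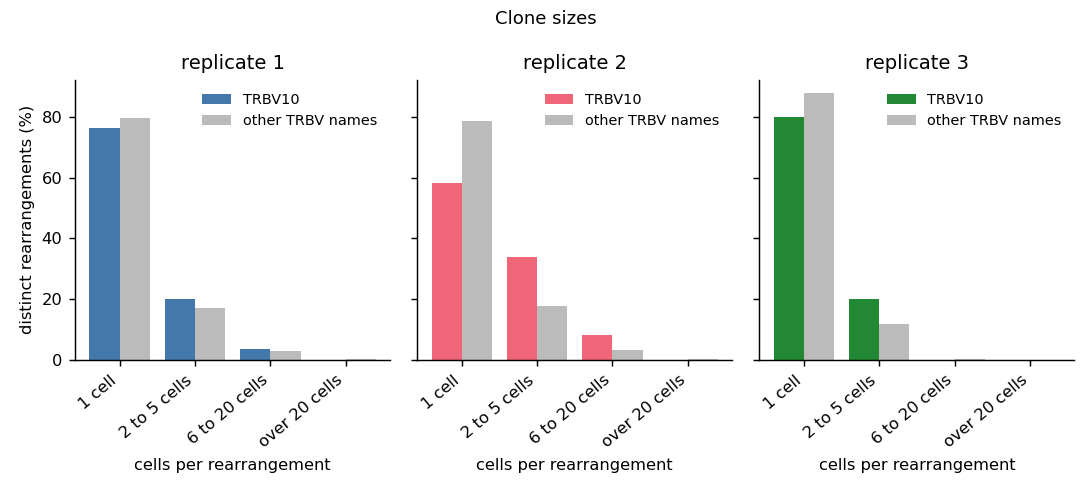
Share of distinct rearrangements (y axis, percent) by number of cells (x axis) in each library, for TRBV10 (coloured) and all other TRBV names (grey). In replicate 2, 58.1% of TRBV10 rearrangements and 78.5% of the others were in a single cell, and no TRBV10 rearrangement had over 20 cells in any library.

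The 3 TRBV10 rearrangements with most cells in each library are shown as the largest clones of the name. Capitals mark bases that match neither Trbv4 nor the J gene, where D and added bases lie:
Replicate 1, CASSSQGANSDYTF, TRBJ1-2: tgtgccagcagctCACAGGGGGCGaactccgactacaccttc
Replicate 1, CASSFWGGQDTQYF, TRBJ2-5: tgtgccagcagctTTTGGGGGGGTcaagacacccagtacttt
Replicate 1, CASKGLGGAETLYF, TRBJ2-3: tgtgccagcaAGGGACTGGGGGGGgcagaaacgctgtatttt
Replicate 2, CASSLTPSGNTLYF, TRBJ1-3: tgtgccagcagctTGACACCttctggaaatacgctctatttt
Replicate 2, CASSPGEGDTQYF, TRBJ2-5: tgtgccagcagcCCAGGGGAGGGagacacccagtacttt
Replicate 2, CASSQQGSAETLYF, TRBJ2-3: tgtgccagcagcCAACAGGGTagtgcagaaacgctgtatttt
Replicate 3, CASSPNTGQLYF, TRBJ2-2: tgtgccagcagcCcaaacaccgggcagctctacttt
Replicate 3, TRBJ1-6: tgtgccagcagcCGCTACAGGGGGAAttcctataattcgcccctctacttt
Replicate 3, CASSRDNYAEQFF, TRBJ2-1: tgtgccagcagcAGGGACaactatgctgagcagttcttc
The largest was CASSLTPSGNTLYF with 19 cells of replicate 2 (0.565% of its cells). In 11 of them no α chain (TRA) was found and in 7 the TRA was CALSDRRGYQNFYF (TRAV6-6, TRAJ49). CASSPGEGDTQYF followed with 9 cells, of which 8 carried a TRAV5-4 chain with TRAJ33 and 6 a second TRA, of TRAV14-1 and TRAJ40. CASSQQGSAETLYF had 8 cells, 7 of them with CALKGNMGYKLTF (TRAV12D-2, TRAJ9).

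Clones of the other libraries were smaller. In replicate 1, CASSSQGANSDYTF had 6 cells, 4 without a TRA and 2 with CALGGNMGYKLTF (TRAV12D-2, TRAJ9). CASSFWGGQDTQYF also had 6, of which 5 carried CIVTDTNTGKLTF (TRAV2, TRAJ27), and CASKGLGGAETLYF had 5, of which 4 carried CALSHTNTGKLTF (TRAV6-5, TRAJ27). In replicate 3, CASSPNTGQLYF had 5 cells. The other 2 rearrangements shown had 2 each, as did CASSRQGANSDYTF, which had fewer UMIs and was placed after them.

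The share of TRBV10 rearrangements without a TRA differed between the libraries. Among rearrangements of a single cell, 10 of 42 of replicate 1 had no TRA (23.8%), and neither had 4 of 36 of replicate 2 (11.1%) or 8 of 16 of replicate 3 (50%). Other names had 12.3%, 22.6% and 36.6%, so TRBV10 was higher in replicates 1 and 3 and lower in replicate 2. Together it was 22 of 94 (23.4%, exact 95% interval 15.3 to 33.3), where all rearrangements would give 20.6%, and the exact test gave an adjusted p of 0.709. In this measure 0 of 21 names (0%) passed. Leaving out replicate 1 turned the direction (23.1% where all would give 26.9%).

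Cells with a second productive TRB made up 8 of 82 TRBV10 cells of replicate 1 (9.76%), 19 of 137 of replicate 2 (13.9%) and 1 of 27 of replicate 3 (3.70%). A cell with 2 TRBV names was counted under each. Counted in this way, the median of the other 21 names was 10.7%, 10% and 1.30%, and TRBV10 took place 15, 5 and 9 of 22 names. A second TRB or TRA in a droplet can come from 1 cell or from 2, which was not tested. Cells with 2 or more TRAs were 11.0%, 13.9% and 7.41% of TRBV10 cells, against 8.58%, 7.71% and 2.92% of the others. Cells of 1 clone are not independent in these shares. The 2 such TRBV10 cells of replicate 3 were 1 clone, the TRBJ1-6 rearrangement shown above. In replicate 2, the clone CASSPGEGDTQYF had 1 TRA in 8 of its 9 cells and a second in 6. The difference from the other names was not tested.

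The TRBV10 rearrangements formed 145 distinct pairs of a TRB and a TRA rearrangement, under 49 TRAV names. TRAV12D-2 led with 13 pairs, 4, 7 and 2 in the 3 libraries, which was 8.97% of the pairs against 3.88% of those of other TRBV names. TRAV5-4 followed with 9 (6.21% against 6.03%) and TRAV16N with 7 (4.83% against 3.72%). Mouse TRAV genes lie in a duplicated locus with near-identical copies, so the choice among copies of a TRAV family is uncertain.

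Of the 13 TRAV12D-2 pairs, 8 had TRAJ9 and a CDR3 of the form CALxGNMGYKLTF, where x is 1 variable residue. This form and the TRB ending described next were picked after their values were seen, so their counts are a description with no test. The form had 4 nucleotide sequences, of which 2 were found in more than 1 library. All are shown because they differ in 1 codon, with the codon of x in capitals:
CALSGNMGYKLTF: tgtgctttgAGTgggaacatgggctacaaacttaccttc
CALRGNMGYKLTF: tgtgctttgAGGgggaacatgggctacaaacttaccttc
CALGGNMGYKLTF: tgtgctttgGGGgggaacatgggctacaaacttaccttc
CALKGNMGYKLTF: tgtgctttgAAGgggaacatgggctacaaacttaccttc
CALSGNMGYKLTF had the same bases in all 3 libraries, with 7 cells together. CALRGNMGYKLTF was in 2 libraries, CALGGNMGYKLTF in replicate 1 and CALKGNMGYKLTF in replicate 2.

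Almost all cells with a TRA of this exact form were TRBV10 cells. It was found in 4 cells of replicate 1, 13 of replicate 2 and 2 of replicate 3, of which 18 had a TRB. The TRB was TRBV10 in 3 of 4 such cells of replicate 1, 12 of 12 of replicate 2 and 2 of 2 of replicate 3. These cells held 9 distinct TRB rearrangements, of which 8 were TRBV10 (2 of 3, 5 of 5 and 1 of 1 by library). That is 88.9%, where TRBV10 made up 3.59% of all rearrangements with any TRA (114 of 3174). The form was picked among the partners of TRBV10 itself. The choice thus favoured a high TRBV10 share, and the 2 values are no test of enrichment. The exception, in replicate 1, was a TRBV12-2+TRBV13-2 rearrangement beside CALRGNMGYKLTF in a cell with 2 UMIs for each chain. The TRA had a median of 3 UMIs (1 to 11), and no cell with it had 2 TRBs. The TRBV10 share was lower under a wider definition, any TRA with a CDR3 ending in GNMGYKLTF (9 TRAV names). Among cells with such a TRA and a TRB, TRBV10 cells were then 3 of 9, 12 of 21 and 2 of 2 in the 3 libraries.

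In 7 of the 8 TRBV10 partners, CDR3 began with CASSxQG, and the other was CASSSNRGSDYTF of replicate 2. This start was picked from these same partners after the values were seen, so it is no independent support. The residues CASS are those that the end of Trbv4 encodes, and partners ending in QGANSDYTF are counted again below. Among TRBV10 rearrangements with only other TRAs, 4 of 106 began with CASSxQG, and among those without a TRA, 1 of 23. Of rearrangements of other TRBV names, 80 of 3735 (2.14%) did, a share not limited to V genes that encode CASS. Besides those already shown, the partners were:
Replicate 1, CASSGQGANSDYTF, TRBJ1-2: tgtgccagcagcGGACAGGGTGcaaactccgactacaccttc
Replicate 2, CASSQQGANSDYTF, TRBJ1-2: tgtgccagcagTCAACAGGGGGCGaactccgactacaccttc
Replicate 2, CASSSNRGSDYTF, TRBJ1-2: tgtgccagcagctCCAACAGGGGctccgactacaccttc
Replicate 2, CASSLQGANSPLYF, TRBJ1-6: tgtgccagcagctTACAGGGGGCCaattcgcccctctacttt
Replicate 2, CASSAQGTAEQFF, TRBJ2-1: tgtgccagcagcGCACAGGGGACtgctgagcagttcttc
Replicate 3, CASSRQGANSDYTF, TRBJ1-2: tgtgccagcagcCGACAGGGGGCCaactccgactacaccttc
The partners used 4 J genes: TRBJ1-2 in 5 rearrangements and TRBJ1-6, TRBJ2-1 and TRBJ2-3 in 1 each.

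**Figure D5:**
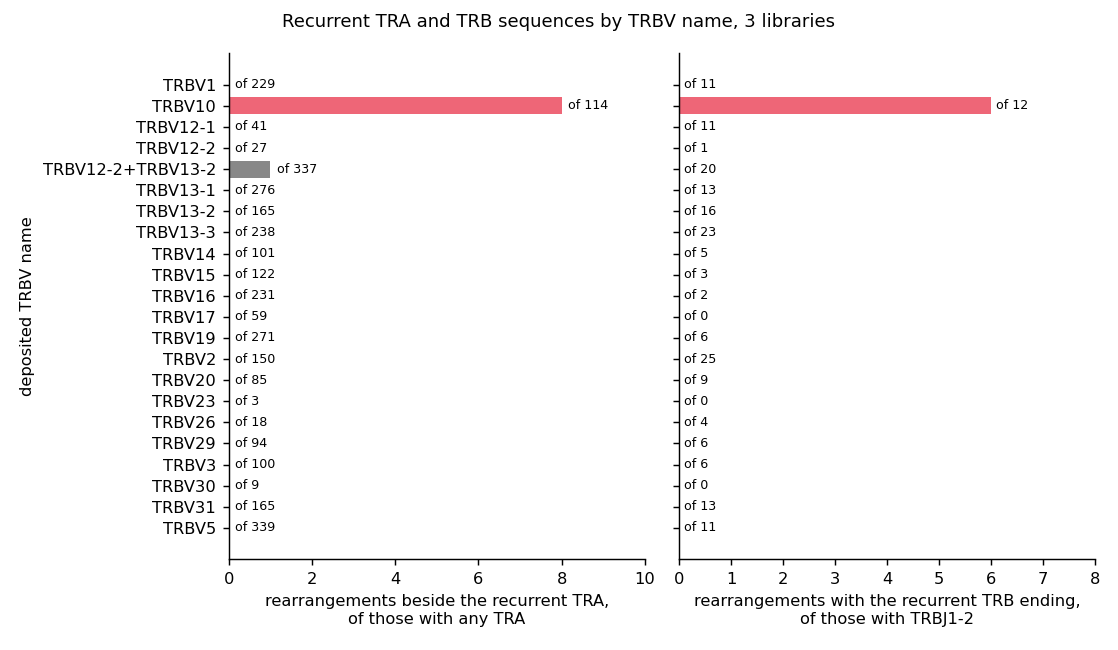
Left, number of distinct rearrangements beside the recurrent TRAV12D-2/TRAJ9 TRA (x axis) for each TRBV name (y axis), with the number that have any TRA written beside each bar. Right, number with the recurrent TRB ending, with the number of TRBJ1-2 rearrangements beside each bar. TRBV10 has 8 of 114 and 6 of 12, and 1 other rearrangement falls in the left panel and 0 in the right.

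An ending of 9 residues, QGANSDYTF, recurred among TRBV10 rearrangements with TRBJ1-2. By library it was found in 2 of 4, 3 of 7 and 1 of 1 such rearrangements, thus in 6 of 12, and in 0 of 185 TRBJ1-2 rearrangements of other TRBV names, which allows a share of up to 1.62%. The 6 CDR3s were each 14 residues long and differed at 1 position, after CASS. They had 5 amino acid sequences and 6 nucleotide sequences, in 14 cells. Besides those shown above, they were:
Replicate 2, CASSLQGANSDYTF, TRBJ1-2: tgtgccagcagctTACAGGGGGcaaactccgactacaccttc
Replicate 2, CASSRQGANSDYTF, TRBJ1-2: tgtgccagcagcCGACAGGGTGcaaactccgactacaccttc
In all 6, the bases in capitals held 7 to 10 bases of TRBD1, the D segment that lies before the TRBJ1 cluster, and 18 to 20 bases matched TRBJ1-2. At most 4 bases (at least 1) matched no segment. The ending and the TRA occurred together in 4 of the 6, while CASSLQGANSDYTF had a TRAV4-3 TRA in 1 of its 2 cells and none in the other. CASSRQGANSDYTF of replicate 2 had a TRAV10D TRA.

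There were 3 TRBV10 CDR3s with the same amino acids and J gene in more than 1 library. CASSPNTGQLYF (TRBJ2-2) was in 2 cells of replicate 2 and 5 of replicate 3, with the same bases, of which 1 matched no segment. Its TRA differed: both cells of replicate 2 had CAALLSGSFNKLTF (TRAV14D-1, TRAJ4) and 3 of those of replicate 3 had a TRAV12-3 chain with TRAJ39. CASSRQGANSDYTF was in replicates 2 and 3 with 2 bases different. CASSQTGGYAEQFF (TRBJ2-1) was in 1 cell each of replicates 1 and 2 with 1 base different:
Replicate 1: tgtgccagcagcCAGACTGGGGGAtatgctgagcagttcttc
Replicate 2: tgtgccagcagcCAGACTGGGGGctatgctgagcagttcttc
Libraries shared 7, 0 and 3 cell barcodes (replicates 1 and 2, 1 and 3, 2 and 3), but no TRBV10 barcode. In addition, 16 pairs of TRBV10 CDR3s from different libraries had the same J gene and length and differed at 1 residue, of which 10 pairs were of the QGANSDYTF group. Among the other 6, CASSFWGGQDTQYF, a 6-cell clone of replicate 1, differed from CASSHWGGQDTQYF of replicate 2, and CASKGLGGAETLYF, a 5-cell clone of replicate 1, from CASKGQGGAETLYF of replicate 3. No TRBV10 nucleotide CDR3 and J gene occurred under another V name in its library. Counted by amino acids, 2 TRBV10 CDR3s with their J gene also occurred under another V name.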

How the data were processed

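CD45+ cells were analysed by 10X Genomics scTCR-Seq in 3 libraries of 1 condition. The authors assembled contigs with Cell Ranger on mm10 (version not given in the sources used here) and deposited, per contig, the counts of UMIs and reads, the V, D, J and C names, the CDR3 and positions. The contig tables have 31 columns, except that of replicate 1, which has 18. Deposited clonotype tables were not used.

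Cells were taken from the filtered contigs, and productive shares from all high-confidence contigs. V sequences were matched exactly to GRCm38 (RefSeq), with genes from GENCODE M21. A D match needed 4 bases. Intervals are exact (Clopper-Pearson, 95%), and a count of 0 allows 3 counts. Measures independent of the choice of gene were tested by summing hypergeometric counts over libraries (two-sided), checked on simulated data. With 1 condition, levels had no second group.

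The gene, lists and rules were chosen with earlier results of these data known. Named were the 3 leading TRBJ and TRAV genes, the 3 largest rearrangements of each library, CDR3s shared between libraries, and the 3 names nearest in share with the neighbours in rank. Other items are said to be picked after their values were seen. The alternatives were a minimum of 3 UMIs, other units and definitions, and leaving out 1 library at a time. Scripts ran on Python 3.11.15 with Biopython 1.88, scipy 1.17.1, pandas 2.3.3, matplotlib 3.10.9 and numpy 2.4.6.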

Additional observations from a re-analysis of the deposited data

How the results depend on the processing

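Over 45 alternatives of 8 results, 34 left the value within its error or on the same side of the threshold. The TRBV10 share of cells moved from 3.97% to 3.67% when rearrangements were counted. The productive share rose from 72.3% to 85.4% with at least 3 UMIs, 77.1% in cell barcodes and 82.4% among full-length contigs, where the other names had 93.3%, 89.4% and 92.4%. With at least 3 UMIs, TRBV10 was above the other names in replicate 3 (95.8% against 93%). The share of rearrangements in more than 1 cell (mean of libraries 28.5%) was 10.6% with more than 2 cells as the limit. Of 3 shared CDR3s, 1 was shared as nucleotides, and leaving out 1 library left 0 to 2 (0 without replicate 2). Longer CDR3s were 24.8% when cells were counted, which passed the threshold (adjusted p = 0.00979, exact test), and 29.3% to 37.3% without 1 library. The direction turned at 37.3%, without replicate 2. The share without a TRA was 17.9% to 31.0% without 1 library, and its direction turned at 23.1%, without replicate 1. The cause was not tested. The TRBJ2 share was 73.2% to 78.7% over its alternatives, with an adjusted p of at least 0.105 (exact test) throughout. No paired analysis was possible because all libraries are of 1 condition. Replicate 3 had 27 TRBV10 cells, at a median of 3 UMIs, which limits what can be read from it alone.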
